A study of Mus musculus with 9 samples.

Results

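Cxcl1, Cxcl2, Cxcl3, Cxcl5 and Csf3, the genes of 4 chemokines that attract neutrophils and of granulocyte colony-stimulating factor, were followed in aorta across the 5 treatment groups of a mouse study. The 5 genes were taken by symbol, and all 5 were found among the 17179 gene symbols of the 9 RNA-seq libraries. All mice were C57BL/6J and were killed on day 28. The normal group drank water (2 libraries). The other 4 groups received BAPN, an inhibitor of lysyl oxidase that weakens the aortic wall, at 1 g/kg/day. BAPN was given alone (2 libraries), with TPA (2 libraries), with T-5224 (2 libraries) or with coQ10 (1 library). TPA, a phorbol ester that activates protein kinase C, was injected into the peritoneum from day 1 at 50 ng/g/day. T-5224, an inhibitor of the AP-1 transcription factor, was gavaged at 5 mg/kg/day, and coenzyme Q10 at 10 mg/kg/day, both from day 7 or 14. The T-5224 libraries carry 2 weeks (replicate 1) and 3 weeks (replicate 2) in their titles and were treated as replicates. If these weeks are lengths of treatment, length and replicate cannot be told apart, and the SD of this group holds both. The labels name the tissue as aorta, and give neither age, sex nor the number of mice behind a library. Because nothing says that libraries of a group came from separate mice, p-values measure only the spread between these samples.

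Cxcl1, Cxcl2, Cxcl3 and Cxcl5 are small secreted proteins that bind Cxcr2 on neutrophils and draw these cells out of blood into tissue. Csf3 acts at a distance, on the bone marrow, where it drives neutrophil production and release. Fibroblasts, smooth muscle, endothelium and macrophages make all of them after interleukin-1, tumour necrosis factor or interleukin-17, through NF-kB, AP-1 and C/EBP factors and through slower decay of short-lived mRNA.

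The 4 chemokine genes lie together, and their control sequences are shown because all 4 were highest in the BAPN libraries. On mouse chromosome 5 (GRCm38.p6, RefSeq), Cxcl5 (90759298 to 90761625), Cxcl3 (90786101 to 90788093), Cxcl1 (90891245 to 90893121) and Cxcl2 (90903899 to 90905938) lie within 146.6 kb. That interval holds 7 protein-coding genes, all 7 of them CXC chemokines, with Ppbp, Pf4 and Cxcl15 as the others. Csf3 lies apart, on chromosome 11 (98700183 to 98703631). RefSeq promoter windows were at hand for 3 of the 5 genes, and the 150 bases before each start are given 5′ to 3′ on the plus strand. Capitals mark the longest run that all 3 windows share (GGGAATTTCCC, 11 bases) and the TATA-like run ATAAAA.
Cxcl3, chr5:90785951-90786100: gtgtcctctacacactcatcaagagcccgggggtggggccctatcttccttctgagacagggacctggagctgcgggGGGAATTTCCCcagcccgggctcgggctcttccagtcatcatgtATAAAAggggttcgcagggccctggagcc
Cxcl1, chr5:90891095-90891244: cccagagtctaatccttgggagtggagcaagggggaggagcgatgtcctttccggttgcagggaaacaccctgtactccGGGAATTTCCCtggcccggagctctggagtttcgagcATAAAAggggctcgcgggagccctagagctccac
Cxcl2, chr5:90903749-90903898: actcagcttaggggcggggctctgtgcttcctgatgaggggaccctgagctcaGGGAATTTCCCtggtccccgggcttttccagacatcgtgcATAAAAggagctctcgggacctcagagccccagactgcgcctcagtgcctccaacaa
The shared run spans bases -73 to -63 from the start of Cxcl3, -71 to -61 in Cxcl1 and -97 to -87 in Cxcl2. It overlaps a match to the NF-kB consensus on each strand in each of the 3. ATAAAA follows at -29 to -24 in Cxcl3, -34 to -29 in Cxcl1 and -57 to -52 in Cxcl2. Over 32851 RefSeq promoter windows of the same length (250 bases before to 50 after the start, both strands), the 11-base run was found in 14 (0.0426%). The 14 include these 3 genes, from which the run was taken, so its presence in them was fixed in advance. The NF-kB consensus was found in 8.46% of windows and ATAAAA in 18.5%. The AP-1 motif TGANTCA, present in 7.81% of windows, had no match in these 3 windows, and the C/EBP motif TTNNGNAA, present in 40.7%, matched in Cxcl2 alone, at -236 to -229. A match is a run of letters, and binding was not measured.

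**Figure D1:**
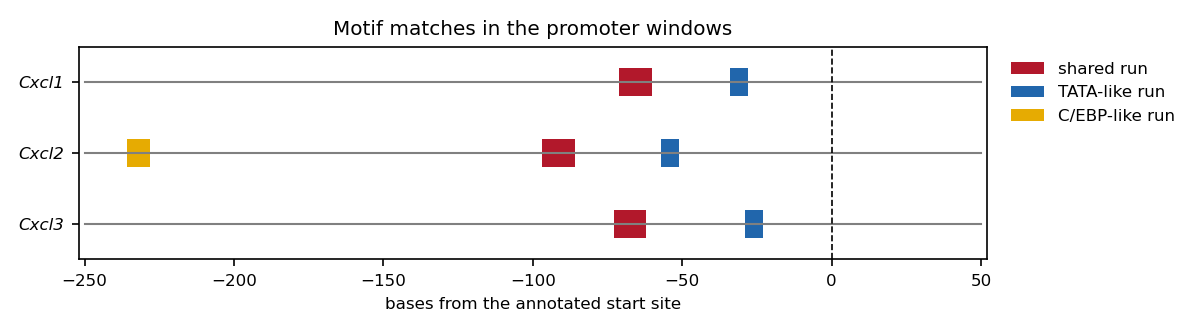
Motif matches in the promoter windows of Cxcl1, Cxcl2 and Cxcl3, with distance from the annotated start site in bases on the x axis and 1 gene per row. The shared 11-base run (red) lies upstream of the TATA-like run (blue) in all 3 genes, and the C/EBP match (yellow) was found in Cxcl2.

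The 3′ untranslated regions hold AU-rich pentamers (ATTTA in DNA letters), a mark of mRNA that decays quickly and that Zfp36 binds. Windows of 30 bases with the most pentamers are shown for the 4 genes with 2 or more in one window, in the sense of the transcript from the GENCODE annotation of the same build, with the pentamers in capitals.
Cxcl1: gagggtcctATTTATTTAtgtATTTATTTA
Cxcl2: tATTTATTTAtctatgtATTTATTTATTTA
Cxcl3: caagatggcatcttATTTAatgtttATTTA
Csf3: gatagtttATTTAtctctATTTAatATTTA
Cxcl2 held 11 pentamers in 737 bases (14.9 per kb), Cxcl1 held 7 in 595 (11.8 per kb), Csf3 held 6 in 672 (8.9 per kb), Cxcl3 held 5 in 648 (7.7 per kb) and Cxcl5 held 5 in 1114 (4.5 per kb). The median over 11879 tested genes with such a region was 1.3 per kb. Cxcl2, Cxcl1, Csf3, Cxcl3 and Cxcl5 had more per kb than 99.8%, 99.6%, 99.0%, 98.3% and 91.5% of these genes. The overlapping 9-base form ATTTATTTA occurred 4 times in Cxcl2 and 2 times in Cxcl1, and in 5.74% of all genes at least once.

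The authors deposited expression as FPKM, a count scaled by gene length and library size, so levels can be set side by side between genes. A gene missing from a library's table is written as not listed and was set to 0. The libraries listed 13982 to 16204 genes each. Absolute depth is unknown, and the spacing of low values put 7 libraries at 0.85 to 1.15 times BAPN replicate 2, while T-5224 replicate 2 could not be resolved. How many reads stand behind values near 0 is therefore unknown. Haemoglobin genes took 1.03% to 1.25% of summed FPKM in normal aorta. Their share was 68.91% to 74.05% after BAPN, 69.21% to 69.42% with TPA, 11.16% to 40.82% with T-5224 and 5.4% with coQ10. Because FPKM is a share of a library, these shares touch every level below. Smooth muscle markers were present in all 9 libraries (summed FPKM of 7 genes, 723 to 18600), while airway markers (9 genes) summed to 18700 in normal replicate 1 and 4990 in T-5224 replicate 2, against 40.0 and 22.2 in the other library of each group. The airway sums were 6910 and 15300 in TPA and 20.7 and 23.3 in BAPN. These are bulk samples, so fewer cells of a type and less RNA per cell cannot be told apart.

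Cxcl1 had the highest level of the 5 genes in every library. The normal libraries stood at 3.14 and 1.77 FPKM and the BAPN libraries at 364.51 and 255.19. With TPA added the values were 45.64 and 47.64, with T-5224 they were 4.93 and 7.59, and with coQ10 the value was 2.76. The groups stood in the order BAPN, TPA, T-5224 and normal with no overlap, and the coQ10 library lay between the normal libraries. Cxcl2, made in quantity by macrophages, was at 0.30 and 0.20 FPKM in normal aorta and at 98.47 and 68.79 after BAPN. TPA libraries held 5.75 and 10.80, T-5224 libraries 3.16 and 1.37 and the coQ10 library 1.68. Here coQ10 lay between the T-5224 libraries, and all BAPN-treated libraries were above both normal ones.

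Cxcl3, a close relative of Cxcl2, was not listed in 1 normal library and at 0.44 FPKM in the other, and at 35.81 and 22.04 after BAPN. With TPA it was at 1.16 and 1.96, with T-5224 at 2.74 and 1.8, and with coQ10 it was not listed. The TPA and T-5224 libraries overlapped, and coQ10 lay within the normal range. Cxcl2 and Cxcl3 transcripts shared 126 runs of 50 bases, 5.84% of those of Cxcl2 and 3.51% of those of Cxcl3, so how reads were split between them is uncertain in part. No other pair of the 5 shared a run of that length. Cxcl5, known for its output by epithelium and activated mesenchyme, was the lowest of the 5 in BAPN, at 7.10 and 4.19 FPKM. Normal libraries held 0.11 and 0.12, TPA libraries 0.25 and 0.49, T-5224 libraries 1.19 and 0.16 and the coQ10 library 0.19. The T-5224 libraries enclosed those of TPA and coQ10, and all of them were above the normal libraries.

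Csf3 was not listed in either normal library and stood at 54.17 and 38.56 FPKM in BAPN. It was at 0.13 and 0.94 in TPA, at 0.41 and not listed in T-5224, and at 0.16 in coQ10. The libraries of the 3 combined treatments overlapped, and every one of them was below 1 FPKM. In BAPN, Csf3 stood above Cxcl3 and below Cxcl2 in both libraries, whereas in TPA it was below both.

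**Figure D2:**
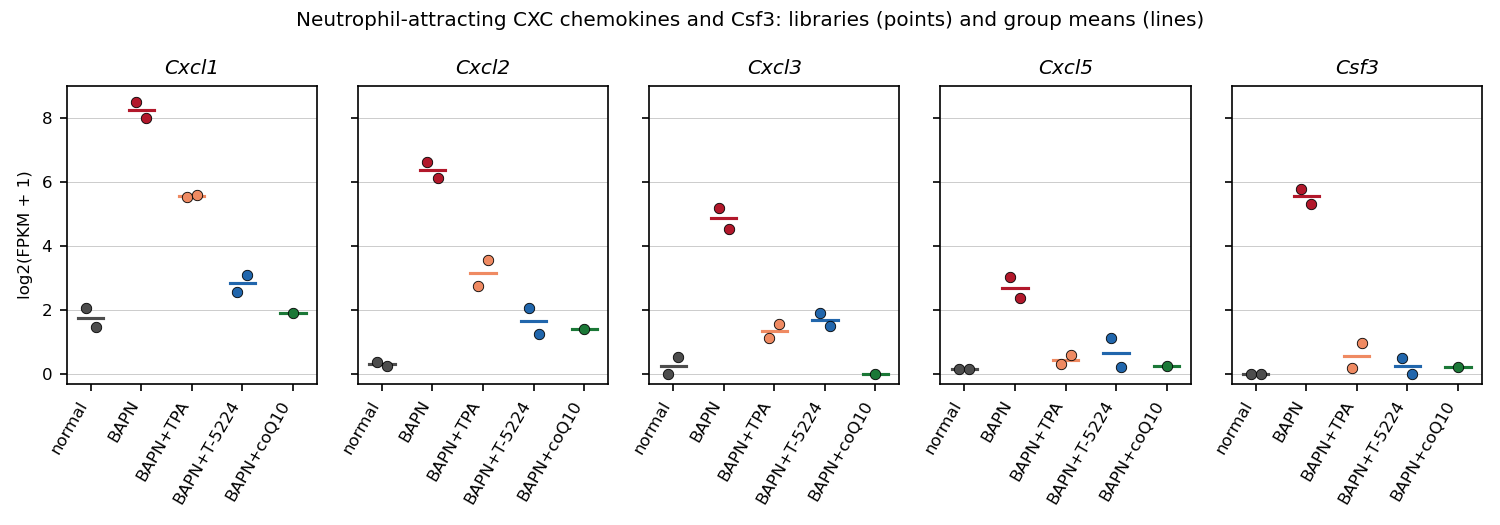
Level of each gene by group, as log2(FPKM + 1) on the y axis, with a point per library and a line at the group mean on this scale. The BAPN points lie above all others in each of the 5 panels, and the TPA points are second highest for Cxcl1 and Cxcl2.

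The first question was what BAPN alone did to these genes against water. Cxcl1, Cxcl2, Cxcl3 and Csf3 rose with or without a filter on low values, and Cxcl5 passed only with the filter. The mean FPKM of Cxcl1 went from 2.46 ± 0.969 (SD, n = 2) to 310 ± 77.3 (SD, n = 2), a ratio of 126, and that of Cxcl2 from 0.25 ± 0.0707 to 83.6 ± 21.0, a ratio of 335. Cxcl3 went from 0.22 ± 0.311 to 28.9 ± 9.74, Cxcl5 from 0.115 ± 0.00707 to 5.64 ± 2.06, a ratio of 49.1, and Csf3 from not listed to 46.4 ± 11.0. No ratio is given for Cxcl3 or Csf3, since 1 or both normal libraries did not list them. The test was limma's moderated test on log2(FPKM + 1), fitted to all 9 libraries and adjusted over 12997 genes with a threshold of 0.05. The offset of 1 understates changes of low genes. The log2 change was 6.50 (SE 0.349, limma adjusted p = 0.00288) for Cxcl1 and 6.06 (SE 0.425, adjusted p = 0.00677) for Cxcl2. It was 5.55 (SE 0.429, limma adjusted p = 0.00918) for Csf3 and 4.60 (SE 0.411, adjusted p = 0.0184) for Cxcl3. Cxcl5 differed by 2.54 (SE 0.484) and was at the edge, with a limma adjusted p of 0.049 that became 0.0584 when all 17179 genes were tested without a filter. In order of log2 change among the 12997 genes, Cxcl1 was at place 9, Cxcl2 at 15 and Cxcl3 at 41.

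Cxcl5 and Csf3 met the filter, a mean of 1 FPKM over the 9 libraries, only through the BAPN libraries, with means of 0.36 and 0.23 FPKM over the other 7. Their tests therefore concern genes that the BAPN group itself brought in, and no count that includes them is read against the background. A share of all genes beside such a count shows only how many genes that fit called. Without the filter, Csf3 passed at a limma adjusted p of 0.0248. Cxcl1, Cxcl2 and Cxcl3 met the filter without the BAPN libraries as well, and all 3 were called. Over all tested genes 3.26% were called (424, of which 117 rose and 307 fell). Scaling moved that split to 197 and 30 under median-of-ratios and to 146 and 9557 under TPM. The 5 genes were chosen with earlier results of these data known, so these 3 calls are no evidence of an excess over that share. The median log2 change of all genes was -0.51 as deposited. Relative to that median, the changes were 7.01 for Cxcl1, 6.57 for Cxcl2, 6.06 for Csf3, 5.11 for Cxcl3 and 3.05 for Cxcl5. Every call of the 5 was lost without BAPN replicate 1. Calls were also lost without BAPN replicate 2, either TPA library or either normal library. Fewer of all genes were called in each of these fits too. Across these fits the log2 change of Cxcl1 stayed between 6.21 and 6.79 and that of Csf3 between 5.31 and 5.79.

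TPA was given to ask how a phorbol ester on top of BAPN alters the aorta. Of the 5 genes, only Csf3 fell against BAPN alone, from 46.4 ± 11.0 to 0.535 ± 0.573 FPKM (SD, n = 2 each). This was a log2 change of -4.98 (SE 0.429, limma adjusted p = 0.0324), and the ratio of BAPN to TPA was 86.7. As Csf3 met the filter only through the BAPN libraries, its p without a filter is also given, at 0.0329 in limma. The differences of the 4 chemokines did not pass. Both TPA libraries lay below both BAPN libraries for Cxcl1, Cxcl2 and Cxcl3, as they did for 21.2% of all genes tested. The same held for Cxcl5, which met the filter only through the BAPN libraries and is not set against that share. The ratio of mean FPKM, BAPN over TPA, was 6.64 for Cxcl1 (log2 difference -2.68, limma adjusted p = 0.132) and 10.1 for Cxcl2 (-3.22, adjusted p = 0.132). It was 18.5 for Cxcl3 (log2 difference -3.53, limma adjusted p = 0.129) and 15.3 for Cxcl5 (-2.25, adjusted p = 0.333). The background was 0.0385% of genes called (5 of 12997), with a median of 0.18. The Csf3 call was lost without either library of BAPN, TPA or T-5224, with adjusted p up to 0.73 in limma.

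Against normal aorta, Cxcl1 was higher with BAPN and TPA, at 46.6 ± 1.41 FPKM (SD, n = 2). The ratio of mean FPKM to normal was 19.0, and the log2 change was 3.81 (SE 0.349, limma adjusted p = 0.032). The other 4 genes did not pass. Their log2 differences were 2.84 for Cxcl2 (limma adjusted p = 0.191), 1.08 for Cxcl3 (0.425), 0.57 for Csf3 (0.546) and 0.29 for Cxcl5 (0.784). Calls made up 0.0462% of genes in this comparison. The Cxcl1 call was lost, at adjusted p up to 0.617 in limma, without either library of normal, BAPN or TPA.

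T-5224 was given to ask what an AP-1 inhibitor does on top of BAPN. Cxcl1, Cxcl2 and Csf3 fell against BAPN alone. Cxcl1 went from 310 ± 77.3 to 6.26 ± 1.88 FPKM (SD, n = 2 each), a log2 change of -5.42 (SE 0.349, limma adjusted p = 0.00959) and a ratio of BAPN to T-5224 of 49.5. Cxcl2 went to 2.27 ± 1.27 FPKM, a log2 change of -4.73 (SE 0.425, limma adjusted p = 0.0428) and a ratio of 36.9. Csf3 went to 0.205 ± 0.29 FPKM, with 1 of the 2 libraries not listing it, a log2 change of -5.30 (SE 0.429, limma adjusted p = 0.0289). Cxcl3 and Cxcl5 did not pass, with log2 differences of -3.17 (limma adjusted p = 0.101) and -2.02 (adjusted p = 0.159).

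In this comparison 0.0308% of all genes were called (4 of 12997), namely Il6 and these 3. Csf3 again entered the test through the BAPN libraries, and without a filter Cxcl1 alone of the 5 was called, with Csf3 at a limma adjusted p of 0.0539. All 3 calls were lost without either library of BAPN or TPA, and some were lost without either normal library. Fewer of all genes were called in those fits too. Calls were also lost without T-5224 replicate 2, where the count over all genes did not fall. Against normal, none of the 5 passed with T-5224, where 0.00769% of genes were called (1 of 12997, and 1809 at an unadjusted p under 0.05). The log2 differences from normal were 1.43 for Cxcl3, 1.33 for Cxcl2, 1.08 for Cxcl1, 0.52 for Cxcl5 and 0.25 for Csf3, with limma adjusted p from 0.308 to 0.802. Both T-5224 libraries lay above both normal libraries for Cxcl1, Cxcl2 and Cxcl3, as they did for 12.7% of all genes tested. The same held for Cxcl5, which met the filter only through the BAPN libraries and is not set against that share.

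TPA and T-5224 were also set against each other, since 1 agent activates and the other inhibits AP-1. None of the 5 genes passed, and 0.0154% of all genes did (2 of 12997, and 1413 at an unadjusted p under 0.05). The ratio of mean FPKM, TPA over T-5224, was 7.45 for Cxcl1 (log2 difference 2.74, limma adjusted p = 0.31) and 3.65 for Cxcl2 (1.51, adjusted p = 0.443). Cxcl3, Cxcl5 and Csf3 overlapped between the groups, with log2 differences of -0.36, -0.22 and 0.32 and limma adjusted p from 0.761 to 0.885. The Cxcl1 difference passed in some alternatives, at a limma adjusted p of 0.0348 without T-5224 replicate 1.

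coQ10 has 1 library, so its SE and p take their spread from the other groups and have no replicate check. On that assumption Cxcl1 passed against BAPN, with a log2 difference of -6.35 (SE 0.427, limma adjusted p = 0.0129), and BAPN stood at 112 times its level. Cxcl2, Cxcl3 and Csf3 missed the threshold at a limma adjusted p of 0.0581 each, with log2 differences of -4.96, -4.86 and -5.33, and Cxcl5 differed by -2.45 (adjusted p = 0.187). The called share was 0.0154% of genes, namely Cxcl1 and Il6. Leaving out any single library of normal, BAPN or TPA ended the Cxcl1 call, while its log2 difference stayed between -6.60 and -6.09. The count of the 5 called rose without either T-5224 library, as did the share of all genes called. Against normal, the log2 differences of coQ10 ran from -0.26 for Cxcl3 to 1.10 for Cxcl2. None passed in limma, where 0% of genes did and 352 had an unadjusted p under 0.05. The comparisons of combined treatments share the BAPN or the normal libraries, so they are not independent of each other.

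**Figure D3:**
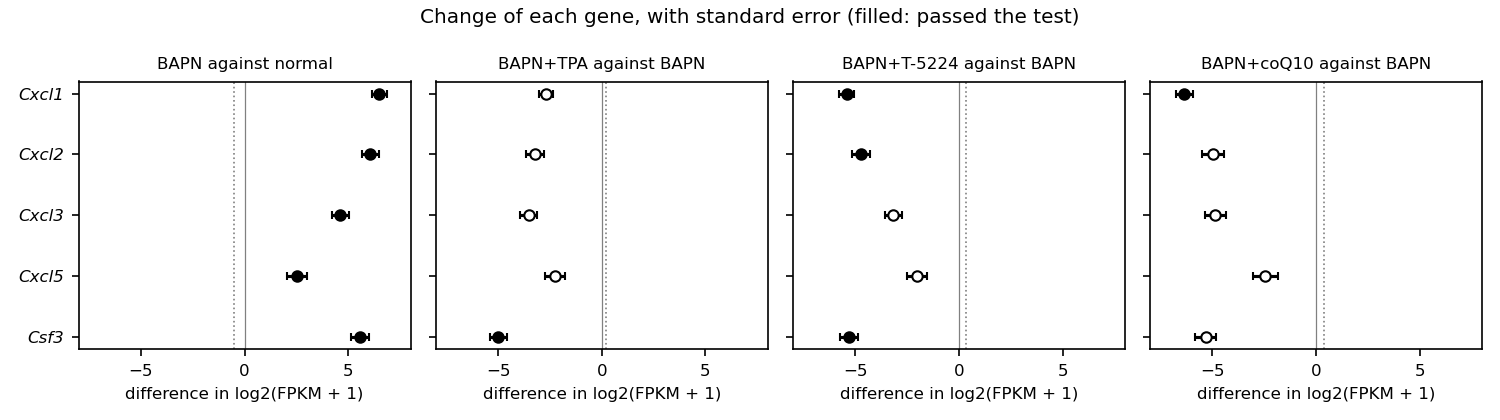
Log2 difference of each gene on the log2(FPKM + 1) scale (x axis) in 4 comparisons, with bars of 1 standard error, filled points for adjusted p under 0.05 and a dotted line at the median of all genes. All 5 points are filled for BAPN against normal, 1 for TPA, 3 for T-5224 and 1 for coQ10, each against BAPN, where coQ10 is 1 library assumed to vary like the others.

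The mixture of the 4 chemokines was nearly the same in the BAPN libraries and varied more elsewhere. Their summed FPKM was 505.89 and 350.21 in BAPN, 52.8 and 60.89 with TPA added, 12.02 and 10.92 with T-5224, 4.63 with coQ10 and 3.55 and 2.53 in normal. Cxcl1 made up 72.1% and 72.9% of the sum in BAPN, and Cxcl2 19.5% and 19.6%. Cxcl1 made up 86.4% and 78.2% in TPA, 41.0% and 69.5% in T-5224, 59.6% in coQ10 and 88.5% and 70.0% in normal. The ratio of Cxcl1 to Cxcl2 was 3.7 and 3.71 in BAPN, below the 7.94 and 4.41 of TPA and the 10.47 and 8.85 of normal. In T-5224 it differed between the libraries, at 1.56 and 5.54, and it was 1.64 in coQ10. Cxcl3 was 22.8% and 16.5% of the sum in T-5224, against 7.1% and 6.3% in BAPN and 2.2% and 3.2% in TPA. It was 17.4% in normal replicate 2, and Cxcl3 was not listed in normal replicate 1 or coQ10. In normal, Cxcl2 was at 0.30 and 0.20 FPKM and Cxcl5 at 0.11 and 0.12, so shares and ratios there rest on values near 0. Cxcl5 was also low in coQ10, at 0.19. No test was made of these shares.

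**Figure D4:**
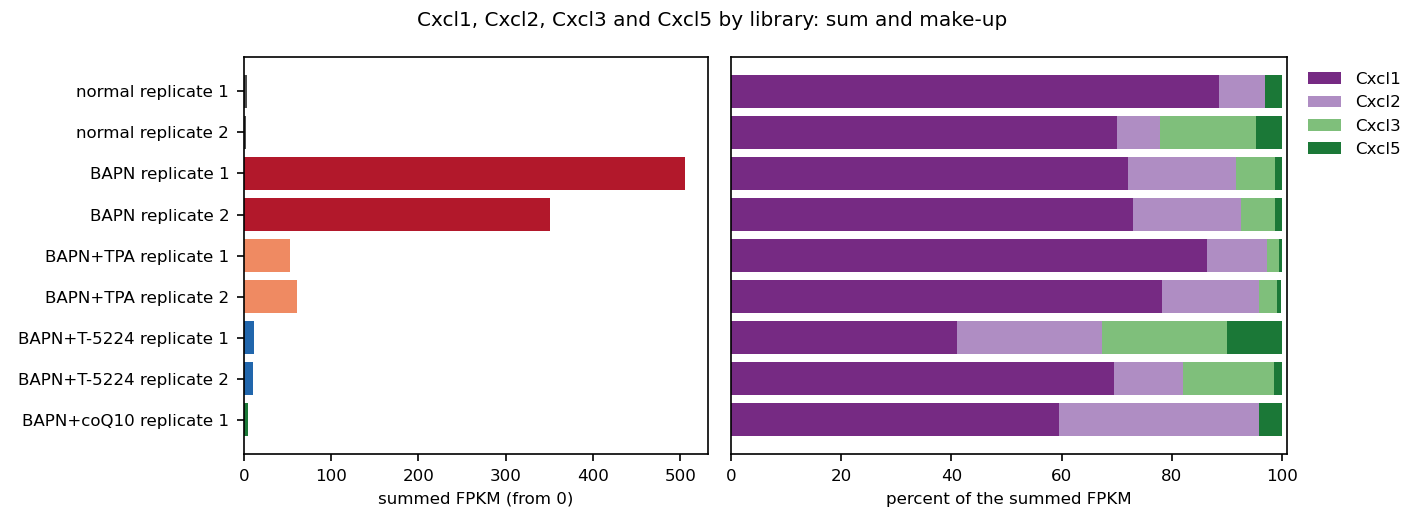
Left, summed FPKM of Cxcl1, Cxcl2, Cxcl3 and Cxcl5 in each of the 9 libraries (bars from 0). Right, the percent of that sum from each gene, where Cxcl1 is the largest part in every library and the bars of the 2 BAPN libraries match closely.

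The receptors did not pass in BAPN against normal. Cxcr2, the neutrophil receptor of the 4 chemokines, was at 0.40 and 0.12 FPKM in normal, 3.17 and 3.05 in BAPN, 7.42 and 0.67 with TPA, 1.68 and 0.87 with T-5224 and 0.22 with coQ10. Its log2 difference between BAPN and normal was 1.72 (SE 0.738, limma adjusted p = 0.162). TPA replicate 1 exceeded both BAPN libraries. Cxcr1, the related receptor, was at most 0.10 FPKM in any library and was not tested. Csf3r, the receptor of Csf3, was at 1.86 and 0.31 FPKM in normal, 9.18 and 6.21 in BAPN and 21.20 and 3.40 in TPA (BAPN minus normal 2.15, limma adjusted p = 0.222). Ackr1, a decoy that carries these chemokines on venules and red cells, was at 6.41 and 2.75 in normal and 38.19 and 37.92 in BAPN (2.89, adjusted p = 0.113). The 3 receptors tested thus gave 0 calls, with a median log2 difference of 2.15 beside -0.51 for all genes.

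The neighbours in the chemokine cluster and the other CXC ligands were also followed. Pf4, platelet factor 4, rose from 48.97 and 38.71 FPKM to 418.37 and 404.85 (log2 change 3.21, SE 0.463, limma adjusted p = 0.0458). With TPA it was at 267.22 and 144.49 and with T-5224 at 363.84 and 182.91, while coQ10 was at 30.35. Ppbp, the other platelet chemokine, did not pass (2.58, limma adjusted p = 0.327). Cxcl15, a lung chemokine, was at 1.54 FPKM in normal replicate 1 and at most 0.05 elsewhere, and was not tested. Of 8 CXC ligands outside the cluster, 7 were tested and none passed in BAPN against normal. Their median log2 difference was 0.98, and the largest of those named was 2.18 for Cxcl10, an interferon-induced attractant of T cells (limma adjusted p = 0.122). Of 6 other colony-stimulating factors and receptors, 5 were tested and none passed, with a median of 0.01. Csf2rb, a receptor subunit shared by several cytokines, differed by 0.71 (limma adjusted p = 0.372), and Csf1r, the receptor of the macrophage factor, differed by -0.81 (limma adjusted p = 0.389).

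Of 9 cytokines listed as inducers of the 5 genes, 7 were found and 5 tested. In BAPN against normal 3 rose, with a median of 3.83. Over all genes tested, 117 of 12997 rose and 307 fell. Il17a and Il17f were not found, and Tnf and Il1a did not meet the filter. Tnf was at 0.58 and 0.47 FPKM in normal and at 0.14 and 1.05 in BAPN. Il1a was not listed in normal and was at 1.77 and 0.80 in BAPN. Il6 rose from not listed and 0.10 FPKM to 214.97 and 139.93 (log2 change 7.38, SE 0.345, limma adjusted p = 0.00229). It fell in TPA (7.58 and 12.04 FPKM, adjusted p = 0.0324), T-5224 (1.30 and 1.37, adjusted p = 0.00713) and coQ10 (0.94, limma adjusted p = 0.0129), each against BAPN. Il1b rose from 0.30 and 0.53 FPKM to 87.83 and 49.04 (log2 change 5.56, SE 0.975, limma adjusted p = 0.0474). With TPA the Il1b libraries were at 93.03 and 12.06, so replicate 1 was above both BAPN libraries. Whether Il1b bears on the 5 genes was not tested. Osm, a macrophage and neutrophil cytokine, rose from 0.34 and 0.20 to 20.40 and 14.29 (3.83, limma adjusted p = 0.0475). Lif, a relative of Il6, did not pass (2.12, limma adjusted p = 0.0552). Of 10 receptors and adaptors of these cytokines, none rose and 1 fell, Il17rc, a subunit of the interleukin-17 receptor (log2 change -1.68, limma adjusted p = 0.049), with a median of -0.43.

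Of 15 regulators of transcription and mRNA decay, 2 rose in BAPN against normal, with a median of 1.13. Over all genes tested, 117 of 12997 rose. Tnfaip3, an NF-kB target that limits NF-kB, rose from 3.63 and 2.22 FPKM to 28.61 and 23.70 (log2 change 2.81, SE 0.358, limma adjusted p = 0.0339). Relb, an NF-kB subunit, rose from 6.47 and 5.55 to 21.69 and 24.50 (1.78, SE 0.271, limma adjusted p = 0.0458). Zfp36, which binds the AU-rich pentamers shown above, was at 86.24 and 131.67 in normal and 345.32 and 358.20 in BAPN (1.71, limma adjusted p = 0.0532). Zc3h12a, an RNase that cuts cytokine mRNA, differed by 1.36 (limma adjusted p = 0.0519). Among 12 AP-1 subunits, 1 rose, with a median of 1.38, beside the same 117 of 12997. Junb rose from 49.58 and 40.33 to 281.67 and 265.28 FPKM (2.58, SE 0.341, limma adjusted p = 0.0339), and it was at 168.19 and 170.55 with T-5224. Fosb, Atf3 and Fosl1 differed by 2.28, 2.87 and 3.00 (limma adjusted p = 0.0547, 0.0552 and 0.0684). No regulator or AP-1 subunit passed in TPA, T-5224 or coQ10 against BAPN.

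Molecules that hold neutrophils on endothelium rose in part. Of 6 genes, 3 rose in BAPN against normal, with a median of 1.92, where 117 of all 12997 genes tested rose. Selp, P-selectin, rose from 4.24 and 3.12 FPKM to 65.49 and 37.61 (log2 change 3.45, SE 0.361, limma adjusted p = 0.0256). Sele, E-selectin, rose from 0.78 and 0.36 to 15.41 and 12.06 (3.23, SE 0.418, limma adjusted p = 0.0339). Icam1, a ligand of leukocyte integrins, rose from 18.86 and 8.49 to 116.67 and 104.12 (3.02, SE 0.407, limma adjusted p = 0.037). Vcam1 differed by 0.82 (limma adjusted p = 0.341). None of the 6 passed against BAPN in TPA, T-5224 or coQ10. Sele was at 1.25 FPKM or below in those 5 libraries. Like Cxcl5 and Csf3, Sele met the filter only through the BAPN libraries. Its call, which is among the 3, therefore concerns a gene that the BAPN group itself brought in. The count of 3 is not read against the share of all genes.

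Markers of neutrophils themselves did not move as 1 group. Of 20 markers, 15 were tested and 4 rose in BAPN against normal (S100a8, S100a9, Stfa2l1 and Il1r2), with a median of 1.99. Over all genes tested, 117 of 12997 rose. Ltf and Cd177, of neutrophil granules and surface, differed the other way, by -3.91 and -1.18 (limma adjusted p = 0.214 and 0.454). Ltf was at 251.04 FPKM in normal replicate 1, at 70.80 and 54.32 with TPA and at most 5.62 elsewhere. Normal replicate 1 and the TPA libraries also had the highest airway sums, and a link was not tested. S100a9, a subunit of calprotectin, rose from 13.97 and 12.44 FPKM to 1010.36 and 615.88 (log2 change 5.80, SE 0.542, limma adjusted p = 0.0195). The summed FPKM of the 6 defining markers was 31.8 and 25.4 in normal, 1890 and 1070 in BAPN, 781 and 245 with TPA, 143 and 375 with T-5224 and 102 with coQ10. S100a8 and S100a9 made up most of that sum in BAPN, and other measures gave another order. The mean log2(FPKM + 1) of the same 6 was 5.50 and 4.76 in BAPN and 5.26 and 3.5 with TPA, and that of all 20 was 3.23 and 2.83 in BAPN and highest, at 3.51, in TPA replicate 1. The sum over all 20 was 310 in normal replicate 1, most of it Ltf, above the 124 of coQ10 and the 166 of T-5224 replicate 1. Ly6g, a surface marker of mouse neutrophils, was listed only in BAPN replicate 1 (1.48 FPKM) and TPA replicate 1 (0.67), and Mpo did not exceed 0.48 or Elane 1.55. No neutrophil marker passed in TPA, T-5224 or coQ10 against BAPN, where the list medians were -0.50, -1.41 and -1.99.

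Other cell types also moved with the groups, and their part in the chemokine results was not tested. Over all genes tested, 117 of 12997 rose and 307 fell in BAPN against normal. In BAPN against normal, 5 of 8 red blood cell markers rose (median 7.37), 1 of 7 platelet markers rose (Pf4, median 3.24) and 1 of 7 smooth muscle markers fell (Lmod1, median -3.66). None passed among 8 macrophage (median -0.07), 7 endothelial (-0.11), 7 fibroblast (-0.21) or 9 airway markers (-3.58). The same held for 5 T cell (1.70), 5 B cell (3.54), 7 squamous (-0.16), 6 skeletal muscle (3.13), 5 cardiac muscle (-4.59), 5 adipocyte (-2.48) and 4 mesothelial markers (-2.28). With haemoglobin left out of each library's sum, 4 of the 5 genes passed in BAPN against normal, beside 0.23% of all genes. Cxcl5 did not pass there (limma adjusted p = 0.073). A fit chosen after seeing the data left out both normal replicate 1 and T-5224 replicate 2, whose airway sums stood far from those of their group. It called far more genes in all. The counts of the 5 that follow include Cxcl5 and Csf3, which met the filter only through the BAPN libraries. All 5 genes passed in BAPN against normal, beside 31.0% of all genes (4032 of 12997), and 4 passed in T-5224 against BAPN, beside 17.3%. All 5 passed in TPA and in coQ10 against BAPN, beside 7.87% and 22.8% of all genes.

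**Figure D5:**
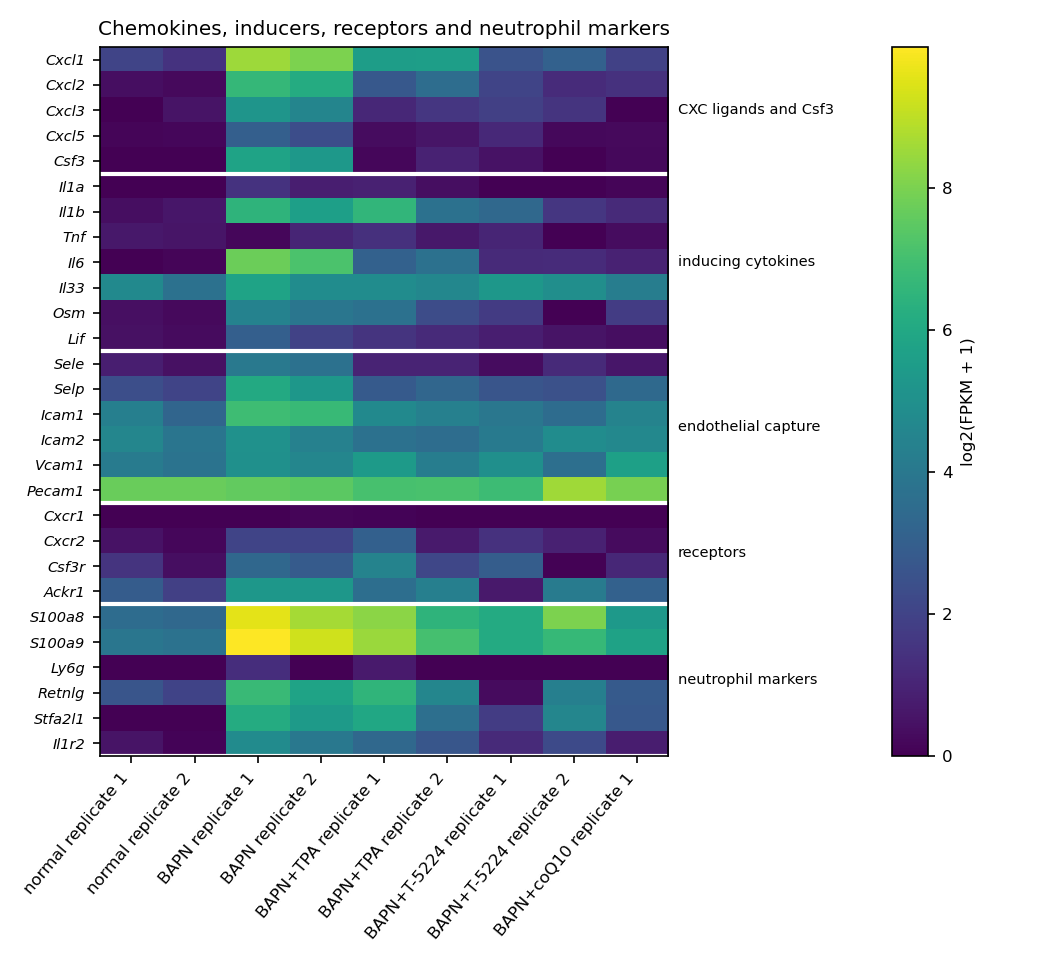
Log2(FPKM + 1) of the 5 genes, their inducing cytokines, endothelial capture molecules, receptors and neutrophil markers (rows) in the 9 libraries (columns), with the colour scale at the right. The BAPN columns are brightest for the top 5 rows and for Il6, while Il1b and the neutrophil markers are also bright in TPA replicate 1.

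The genes whose course over the 9 libraries was most like each of the 5 were found by the root mean square difference of centred log2(FPKM + 1), where 0 is identical. Il6 was nearest to Cxcl1 (0.56) and to Cxcl2 (0.62), followed by Ccl2, a monocyte chemokine (0.79 and 0.65), and Ptx3, a pattern recognition protein (0.85 and 0.68). Cxcl1 and Cxcl2 were 0.70 apart, so Cxcl2 was second in the order for Cxcl1. For Cxcl3 the nearest were Rnd1 (0.55), Omp (0.66) and Socs3, a feedback inhibitor of cytokine signalling (0.71). For Cxcl5 they were Acod1, the itaconate enzyme of activated macrophages (0.17), Plaur, the urokinase receptor (0.23), and Olr1 (0.33). For Csf3 they were Adamts4, a matrix protease (0.60), Hand1 (0.91) and Omp (0.92), while Cxcl3 and Cxcl2 were at 0.78 and 0.80. Adamts4 was at 40.69 and 21.63 FPKM in BAPN and at most 2.18 in every other library, and Csf3 also stood apart in BAPN. Ccl2 was at 202.71 and 97.40 in BAPN, 18.53 and 19.25 in TPA, and 9.59 and 12.21 in T-5224, with coQ10 at 2.58 and normal at 1.22 and 0.46, so TPA lay between BAPN and T-5224 as it did for Cxcl1. Acod1, Olr1, Adamts4 and Omp met the filter only through the BAPN libraries, as Cxcl5 and Csf3 did, so being highest in BAPN was fixed in advance for them. The measure grows with the size of the changes, so its values cannot be compared between the 5 genes. In the order for Cxcl5, Cxcl2 was at place 8092 and Cxcl1 at 12128. These values describe likeness over the same 9 libraries, and no test was made of them.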

How the data were processed

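RNA was extracted with Trizol from aorta and libraries were made with a TruSeq kit, per the labels' protocols. Each library has a table of FPKM by gene symbol, as deposited by the authors. The build is mm10, per the submitters' processing notes. Aligner, counting tool and annotation: not given in the sources used here. A gene absent from a table was given the value 0. Samples were grouped by their labels, where 1 treatment name was read as coQ10.

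FPKM were transformed to log2(FPKM + 1), and genes with a mean of at least 1 FPKM over the 9 libraries were tested. limma 3.58.1 (R 4.3.3) fitted 5 groups with 4 residual degrees of freedom and an intensity trend, without a replicate block. Two-sided p-values were adjusted (Benjamini-Hochberg) over the genes of each of 8 comparisons. The script was tested on simulated data. Tables were handled in python 3.11.15 with pandas 2.3.3, numpy 2.4.6 and matplotlib 3.10.9. Positions and promoters came from RefSeq on GRCm38.p6, and 3′ untranslated regions from GENCODE. The 5 genes, the pathway and cell type lists and the tests were chosen with earlier results of these data known. Named genes were the 5, for each the 3 nearest profiles, and up to 4 of each pathway list by smallest p in BAPN against normal, receptors and cluster neighbours always, plus genes singled out after their values were seen (the neutrophil markers and low-level genes). Alternatives were other scalings, offsets, filters and fits and leaving out each library.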

Additional observations from a re-analysis of the deposited data

How the results depend on the processing

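Of 740 values of a single gene under an alternative, 619 kept their direction and their side of the threshold. A further 77 kept the direction and lost the call, and 36 kept it and gained one. The other 8 changed sign or came to 0.00, and none of them was called. In BAPN against normal, the log2 change stayed above 0 in every alternative run, between 5.05 and 7.0 for Cxcl1, 5.07 and 7.89 for Cxcl2, 3.67 and 6.92 for Cxcl3, 1.8 and 4.69 for Cxcl5 and 4.79 and 8.84 for Csf3. The median of all genes in this comparison was -0.51 as deposited, -1.92 after rescaling to TPM and 0.00 after median-of-ratios scaling. Over all genes, 424 were called in this comparison, against 152 with an offset of 0.1, 53 without a filter, 325 after quantile normalization (259 rose), 30 without haemoglobin (28 rose), 197 without the intensity trend, 37 with the 2 groups alone and 8 with the replicate block. With 1 library left out the count ran from 0 to 3670. Calls of genes outside the 5 were not followed through the alternatives.

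The counts of the 5 genes called moved more. As Cxcl5 and Csf3 met the filter only through BAPN libraries, these counts are not read against the shares of all genes beside them. In the fit reported they were 5 in BAPN against normal and, against BAPN, 1 for TPA, 3 for T-5224 and 1 for coQ10. They were 0 for TPA against T-5224 and 1 for TPA against normal. With 1 library left out, all calls of the 5 were lost in at least 1 fit of each comparison that had any. Calls were gained in other fits of coQ10 against BAPN and of TPA against T-5224. Calls over all genes also fell in some of these fits and rose in others, in each of these comparisons. Fitting only the libraries of the compared groups gave 3, 5, 0 and 0 in the first 4 of these, beside 0.285%, 7.48%, 0% and 0% of all genes, and 0 for TPA against normal. The replicate block gave 3 for BAPN against normal, beside 0.0616% of all genes. It gave 0 for TPA against BAPN, T-5224 against BAPN and TPA against normal. The replicate numbers did not pair the libraries, as correlations of same-numbered deviations ran from -0.44 to 0.18, and coQ10 could not be fitted with a block. An offset of 0.1 gave 0 for TPA and 1 for T-5224 against BAPN, beside 0% and 0.0154% of all genes. Testing without a filter gave 1 for T-5224, beside 0.0116%. TPM gave 0 for TPA and 4 for coQ10 against BAPN and 2 for TPA against normal, beside 0.0153%, 55.9% and 66.7% of all genes. Median-of-ratios scaling gave 4 for coQ10 against BAPN, beside 0.0771% of all genes. Quantile normalization gave 3 for TPA and 3 for coQ10 against BAPN, beside 0.108% and 0.0616%. Leaving haemoglobin out of the sum gave 1 for TPA against T-5224, beside 0.0306%. Leaving out both normal replicate 1 and T-5224 replicate 2, chosen after seeing the data, gave 5 for TPA and 5 for coQ10 against BAPN, 1 for TPA against T-5224 and 2 for TPA against normal, beside 7.87%, 22.8%, 4.49% and 11.8% of all genes. Leaving out any library but that of coQ10 lowered the residual degrees of freedom. Calls over all genes in BAPN against normal rose to 3633 and 3670 without T-5224 replicate 1 and 2. Why the counts moved was not tested.

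Small differences changed sign or came to 0.00. Between TPA and T-5224, Csf3 differed by -0.29 under quantile normalization and by -0.07 to 0.71 with 1 library left out, Cxcl3 by 0.06 without haemoglobin, and Cxcl5 by -0.68 to 0.23 with 1 library left out. Against normal, Cxcl5 in TPA differed by -0.24 under quantile normalization. With 1 library left out, Csf3 in T-5224 differed by 0.00 to 0.50, Cxcl1 in coQ10 by -0.14 to 0.44 and Cxcl3 in coQ10 by -0.53 to 0.00. Depth is unknown, so precision near 0 FPKM could not be given.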
